A study of Mus musculus with 14 samples.

Results

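The MHC class I antigen presentation genes examined here were H2-K1 and H2-D1, B2m, Tap1, Tap2, Tapbp, Psmb8, Psmb9, Psmb10 and Nlrc5. They were chosen by gene symbol, and these 10 genes each had a count row among the 23282 genes measured. RNA was taken from epididymal white adipose tissue (eWAT), a visceral fat depot of male mice, and sequenced by the QuantSeq 3′ method, which reads the end of each transcript next to the poly(A) tail. All mice were wild-type male C57BL/6J animals, 4 weeks old on arrival, that received either a standard diet (control) or the Western diet D12079B (WD) for 20 weeks. Batch 1 held 4 control libraries (controls 1 to 4) and 5 WD libraries (WD 1 to 5), and batch 2 held 5 further control libraries (controls 5 to 9). The labels do not say what a batch stands for, and no WD library belonged to batch 2.

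MHC class I molecules carry short peptides from proteins made inside the cell to the cell surface, where CD8 T cells and natural killer cells read them. Peptides are cut by the proteasome, pumped into the endoplasmic reticulum by the transporter TAP and loaded onto a complex of a heavy chain and beta-2-microglobulin. Interferons and the coactivator Nlrc5 raise the transcription of these genes in many cell types, and nearly every nucleated cell, adipocytes and macrophages included, expresses some of them.

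The libraries held between 10278970 and 13712254 counts, and 3 counts, taken as the detection limit, corresponded to 0.219 to 0.292 CPM (a count scaled to its library total). All 9 adipocyte markers examined had counts in each of the 3 groups, so that fat RNA was present in all of them. A pair of batch 1 controls stood apart. Control 1 held RNA of the epididymis, the organ this fat pad lies against: 14 epididymis markers summed to 183140 CPM there and to at most 51.7 CPM in any other library, while its adipocyte markers summed to 6676 CPM against at least 31150 CPM elsewhere. In control 4 only 7999 genes had a count, against 10903 to 13780 in the other libraries. Where leaving out control 1 or control 4 alone moved a fold change given below for batch 1 or for all controls by over 1.5 times, the value without it is given too. The marker sums above and the levels below are in CPM scaled by the TMM method. Before that scaling the epididymis markers held 14.1% of the counts of control 1 and the adipocyte markers 0.514%. Fold changes are those of edgeR's quasi-likelihood test with its standard error (SE). An adjusted p, or FDR, is the Benjamini-Hochberg value over all genes tested, with 0.05 as the threshold.

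The diets were compared within batch 1, between the WD libraries and all 9 controls, and between the WD libraries and the batch 2 controls. These comparisons share the WD libraries and some controls, so they are not independent of each other. In the last of them diet and batch cannot be told apart. H2-K1, Tapbp and Tap1 were higher in the WD libraries than in the batch 2 controls at an FDR under 0.05, by 2.26-fold, 2.39-fold and 2.00-fold. That was 3 of 10 members, against 6.4% of the 12070 genes tested in that comparison and 3.93% of them called higher. Within batch 1 no member passed, and none of the 12157 genes tested did (0%). There 9 of 10 members had a fold change above 0, against 51.8% of all genes, and the median over the members was 1.05 on the log2 scale against 0.031 over all genes. Against all 9 controls no member passed either, against 0.53% of 12653 genes, and the medians were 0.86 for the members and -0.042 for all genes, with 9 of 10 members and 47.1% of all genes above 0. Against the batch 2 controls the medians were 0.71 and -0.0034, with 10 of 10 members and 49.8% of all genes above 0.

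**Figure D1:**
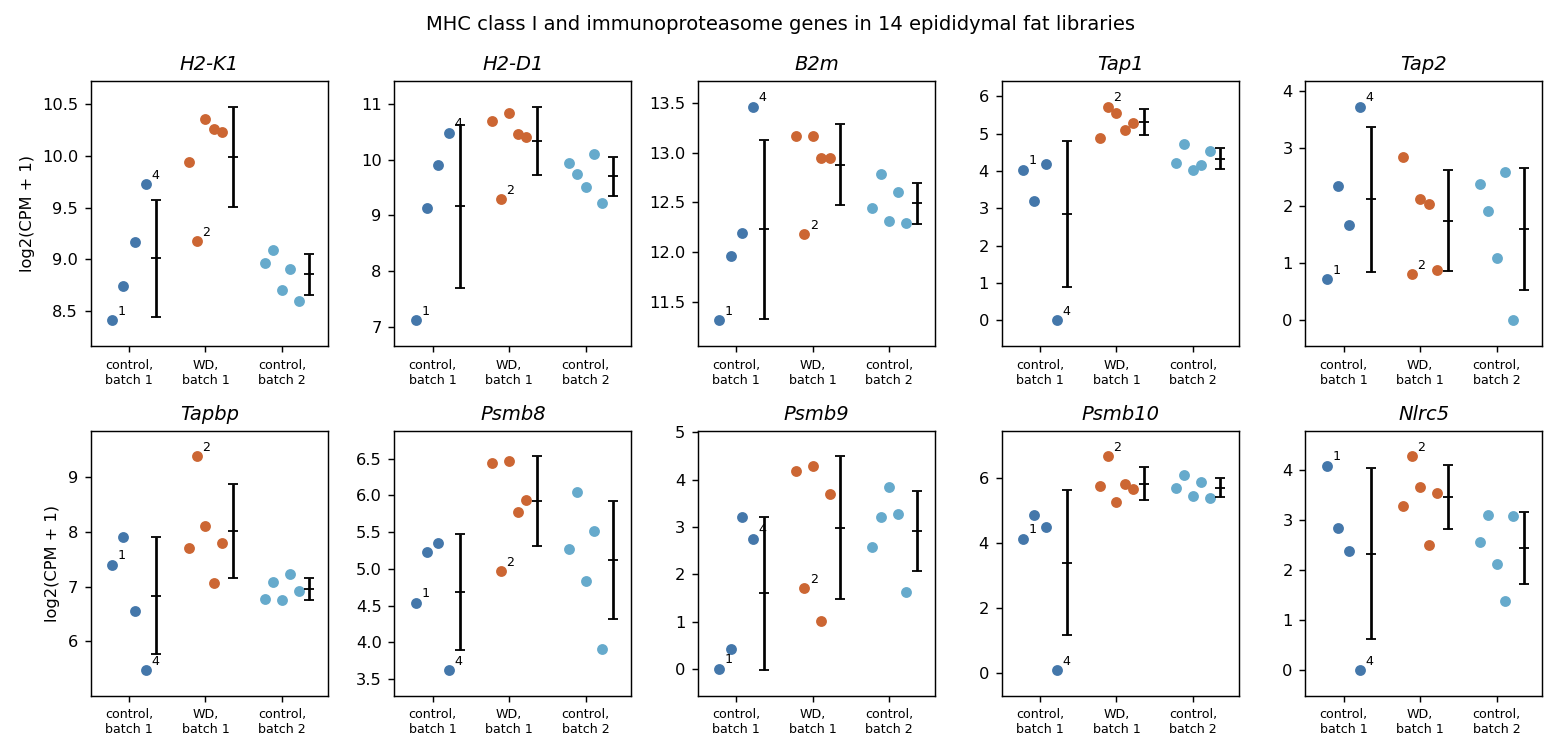
Level of each member in each library, as log2(CPM + 1) on the vertical axis, by diet and batch. Each point is 1 library, the bar beside a group is its mean with the SD, and controls 1 and 4 and WD 2 are numbered. WD libraries of H2-K1 reach 1309 CPM against 845 CPM in the highest control, and control 4 lies at 0 counts for Tap1 and Nlrc5.

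Unadjusted p-values were counted in the same way. In batch 1, 2 of 10 members, H2-K1 and Psmb8, had an edgeR p under 0.05, against 5.17% of all genes and 3.35% with a higher level in WD. Against all controls the count was 3 of 10, H2-K1, Tapbp and Psmb8, against 7.73% of all genes and 4.48% with a higher level in WD. Against the batch 2 controls it was 4 of 10, with H2-D1 beside the 3 members that passed the FDR, against 17.7% of all genes and 9.83% with a higher level in WD. In an exact permutation test of log2(CPM + 1), 4 of 10 members had a p under 0.05 in batch 1, against 9.87% of all genes, and 4 of 10 did so against all controls, against 11.5%. Against the batch 2 controls 3 of 10 did, against 20.6%. The exact test compares the means of the libraries over every split of them into groups of the same sizes and cannot go below 0.00794 in batch 1 and against the batch 2 controls, or below 0.0004995 against all controls. After adjustment over all genes it called no gene in any of them.

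**Figure D2:**
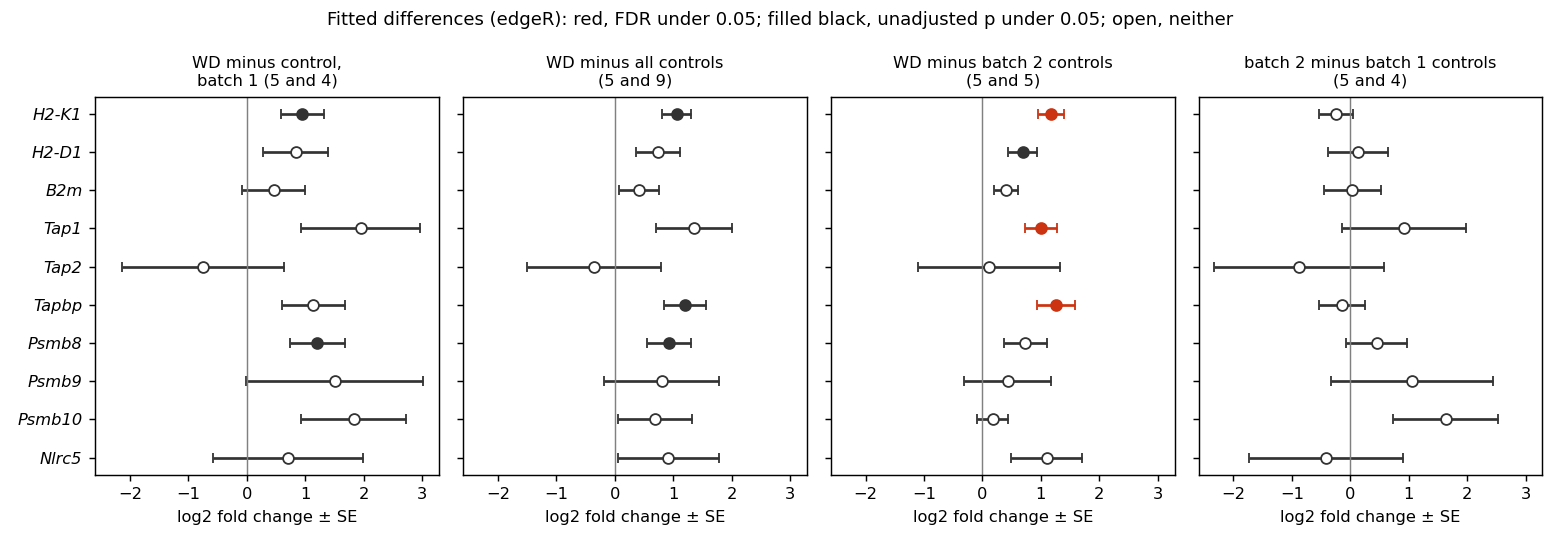
Fitted log2 fold change of each member with its SE in the 3 comparisons of diets and in the comparison of the control batches, with the numbers of libraries in brackets. Red points have an FDR under 0.05, filled black points an unadjusted p under 0.05 and open points neither. Red points appear for H2-K1, Tap1 and Tapbp against the batch 2 controls.

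The heavy chains and the light chain come first. H2-K1 (Entrez 14972, chr17:33996012-34000333, minus strand, build mm10) and H2-D1 (Entrez 14964, chr17:35263094-35267497, plus strand) encode the classical heavy chains K and D, which bind the peptide. B2m (Entrez 12010, chr2:122147687-122153082, plus strand) encodes beta-2-microglobulin, the light chain without which heavy chains do not reach the surface. Their promoters are shown because the levels of the 3 genes moved together between libraries, as described further on. The windows run from 250 bases before to 50 bases after the RefSeq start on GRCm38.p6, 5′ to 3′ on the gene's strand, and span chr17:34000298-34000597 for H2-K1, chr17:35262844-35263143 for H2-D1 and chr2:122147437-122147736 for B2m. Capitals mark matches on either strand to 5 motifs that were searched: GAANNGAAA (interferon response), TTCNNNGAA (GAS, the interferon gamma-activated site), GGG and TTCCC with 2 bases between them (NF-kB), CCAAT and TGACGT (CRE-like).
H2-K1: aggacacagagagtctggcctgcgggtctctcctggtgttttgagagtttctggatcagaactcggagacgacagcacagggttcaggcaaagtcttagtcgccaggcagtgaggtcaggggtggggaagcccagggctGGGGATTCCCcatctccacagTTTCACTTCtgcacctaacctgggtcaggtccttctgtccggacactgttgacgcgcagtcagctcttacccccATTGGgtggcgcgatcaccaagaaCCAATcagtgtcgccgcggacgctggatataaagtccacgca
H2-D1: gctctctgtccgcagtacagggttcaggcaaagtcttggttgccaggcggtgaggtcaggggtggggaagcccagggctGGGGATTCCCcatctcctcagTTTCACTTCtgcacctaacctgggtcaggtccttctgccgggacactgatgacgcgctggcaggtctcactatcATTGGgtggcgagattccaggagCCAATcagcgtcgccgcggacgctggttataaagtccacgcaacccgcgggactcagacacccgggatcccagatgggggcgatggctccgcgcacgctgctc
B2m: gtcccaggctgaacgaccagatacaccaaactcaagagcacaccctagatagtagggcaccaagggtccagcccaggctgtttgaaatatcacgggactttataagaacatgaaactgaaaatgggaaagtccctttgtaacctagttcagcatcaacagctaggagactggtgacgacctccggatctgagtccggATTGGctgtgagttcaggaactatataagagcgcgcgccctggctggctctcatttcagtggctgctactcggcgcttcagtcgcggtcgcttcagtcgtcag
H2-K1 and H2-D1 each held 1 match to the NF-kB motif, at positions -111 and -171 with 0 at the start, and after it 1 match to the interferon response motif, at -90 and -150. The H2-K1 window shown is that of the first of its 2 RefSeq starts, and from the second start the same matches lay at -125 and -104. The matches of these motifs did not overlap each other. Of all 27025 mouse promoters of that length in the table, 1.66% held the NF-kB motif, 7.56% the interferon response motif, 8.47% the GAS motif, 37.9% CCAAT and 7.64% the CRE-like motif. Windows were found for 8 of 10 members, and the NF-kB and interferon response motifs had matches in 2 of these 8, both of them heavy chains. CCAAT had a match in 6 of 8, B2m included, and the CRE-like motif in 0 of 8. A match describes these letters only and is not a measured binding site. Other spacings and forms of the motifs were not searched. The stretch gaaactgaaa in the B2m window, with 3 bases between GAA and GAAA, was therefore not counted. The lack of a match does not show that a window lacks such an element.

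H2-K1 stood at 339, 428, 573 and 845 CPM in controls 1 to 4, at 985, 576, 1309, 1225 and 1199.7 CPM in WD 1 to 5, and at 499, 544, 417, 479 and 386 CPM in controls 5 to 9. In 4 of 5 WD libraries H2-K1 lay above all 9 controls, and WD 2 lay above all controls but control 4. The WD libraries averaged 1059 ± 295 CPM (SD, n = 5), the batch 1 controls 546 ± 221 CPM (SD, n = 4) and the batch 2 controls 465 ± 63.5 CPM (SD, n = 5). The log2 fold change was 0.95 ± 0.37 (SE) in batch 1, with an FDR of 0.808 and an unadjusted p of 0.0240 by edgeR. It was 1.06 ± 0.25 against all controls (edgeR FDR 0.0663) and 1.18 ± 0.22 against the batch 2 controls (edgeR FDR 0.00284). The exact permutation p was 0.0317, 0.000999 and 0.00794 in the same order. With each of the 14 libraries left out in turn, the log2 fold change against all controls ran from 0.98 to 1.23. The edgeR FDR then ran from 0.00687 to 0.237. It was lowest without control 4, the one control above a WD library, where the log2 fold change was 1.20 ± 0.23. The means of the control batches differed by less than the SD of batch 1 and by more than that of batch 2.

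H2-D1 stood at 137, 562, 964 and 1433 CPM in controls 1 to 4, at 1672, 627, 1829, 1419.8 and 1366 CPM in WD 1 to 5, and at 983, 857, 728, 1102 and 594 CPM in controls 5 to 9. WD 1 and WD 3 lay above all controls, whereas WD 2 lay below 6 of them. WD and control differed by 0.84 ± 0.56 on the log2 scale in batch 1 (edgeR FDR 1.00), 0.74 ± 0.38 against all controls (edgeR FDR 0.719) and 0.69 ± 0.25 against the batch 2 controls (edgeR FDR 0.143). Without WD 2 the last value became 0.87 ± 0.18, with an edgeR FDR of 0.00625. DESeq2 called H2-D1 with WD 2 included (log2 fold change 0.70 ± 0.25, DESeq2 FDR 0.0493), so the call turned on that library and on the choice of test. By DESeq2 4 of 10 members passed there, against 9.56% of all genes and 5.88% called higher. In batch 1 the value was 0.49 ± 0.38 without control 1 and 1.30 ± 0.58 without control 4 (unadjusted edgeR p 0.224 and 0.0437).

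B2m stood at 2544, 3988, 4665 and 11295 CPM in controls 1 to 4, at 9185, 4636, 9189, 7891 and 7892 CPM in WD 1 to 5, and at 5572, 7075, 5103, 6227 and 5021 CPM in controls 5 to 9. The highest of all 14 libraries was control 4 and the next 4 were WD 3, WD 1, WD 5 and WD 4, while WD 2 ranked 12. In log2 terms WD and control differed by 0.46 ± 0.54 in batch 1, 0.42 ± 0.34 against all controls and 0.41 ± 0.20 against the batch 2 controls, with edgeR FDRs of 1.00, 0.958 and 0.317. Without WD 2 it was 0.55 ± 0.15 against the batch 2 controls with an edgeR FDR of 0.0337. In batch 1 it was 0.22 ± 0.40 without control 1 and 1.03 ± 0.49 without control 4, so that either of these libraries moved it by over 1.5 times, with an edgeR FDR of 0.510 or more.

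The transporter subunits and the loading factor follow. Tap1 (Entrez 21354, chr17:34187556-34197225, plus strand) and Tap2 (Entrez 21355, chr17:34204479-34216321, plus strand) encode the subunits of the peptide transporter. Tapbp (Entrez 21356, chr17:33919478-33929290, plus strand) encodes tapasin, which holds the empty heavy chain next to TAP while peptides are exchanged. Tap1 lies head to head with Psmb9, with 226 bases between their starts, so that their promoter windows share 275 bases. The Tap1 window (chr17:34187306-34187605) is printed for that reason, beside that of Psmb8 (chr17:34197945-34198244), the immunoproteasome gene next to it.
Tap1: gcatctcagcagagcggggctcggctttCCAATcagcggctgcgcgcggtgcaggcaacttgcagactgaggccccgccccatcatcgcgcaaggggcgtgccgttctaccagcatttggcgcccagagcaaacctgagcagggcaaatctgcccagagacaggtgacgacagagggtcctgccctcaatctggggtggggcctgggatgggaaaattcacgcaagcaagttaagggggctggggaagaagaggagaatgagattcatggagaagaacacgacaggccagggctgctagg
Psmb8: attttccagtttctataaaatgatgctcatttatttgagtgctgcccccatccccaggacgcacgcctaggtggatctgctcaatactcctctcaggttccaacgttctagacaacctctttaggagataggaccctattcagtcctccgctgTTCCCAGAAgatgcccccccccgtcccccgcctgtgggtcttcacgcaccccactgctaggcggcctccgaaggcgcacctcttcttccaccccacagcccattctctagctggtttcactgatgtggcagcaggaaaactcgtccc
The Tap1 window held 1 match, to CCAAT at -222, and the Psmb8 window 1 match, to the GAS motif at -97. The Psmb9 window, read from the other strand, held the same CCAAT match at -8.

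Tap1 stood at 15.4, 8.17, 17.2 and 0 CPM in controls 1 to 4, at 28.4, 51.8, 46.3, 33.2 and 37.7 CPM in WD 1 to 5, and at 17.5, 25.4, 15.4, 16.962 and 22.3 CPM in controls 5 to 9. All 5 WD libraries lay above all 9 controls. Such a separation was seen in 1.13% of genes against all controls, in 3.03% in batch 1 and in 4.99% against the batch 2 controls. Control 4 had 0 counts of Tap1, which allows a level of up to 0.243 CPM before TMM scaling, and the other libraries had 98 to 625 counts. In batch 1 the log2 fold change was 1.95 ± 1.02 (edgeR FDR 1.00) and 1.00 ± 0.28 against the batch 2 controls (edgeR FDR 0.0403). Against all controls it was 1.35 ± 0.65 with an edgeR FDR of 0.654, and without control 4 it was 1.18 ± 0.29 with an edgeR FDR of 0.0409. That was the lowest with a single library left out, and the edgeR FDR reached 0.906 over all 14 such fits. The exact permutation p was 0.00794 in batch 1, 0.00949 against all controls and 0.00794 against the batch 2 controls. Without WD 2 the comparison with the batch 2 controls gave 0.89 ± 0.28 and an edgeR FDR of 0.0662. In all, 7 of the 10 single libraries ended the call when left out (WD 2, 3 and 5 and controls 5, 7, 8 and 9), with edgeR FDRs of 0.0375 to 0.110 over all 10.

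Tap2 was scarce, with 0 to 168 counts. It stood at 0.648, 4.09, 2.17 and 12.2 CPM in controls 1 to 4, at 6.21, 0.751, 3.33, 3.09 and 0.833 CPM in WD 1 to 5, and at 4.17, 2.76, 1.12, 4.97 and 0 CPM in controls 5 to 9. The groups overlapped throughout, and the highest library was again control 4. Fold changes were -0.75 ± 1.39 on the log2 scale in batch 1, -0.35 ± 1.14 against all controls and 0.12 ± 1.21 against the batch 2 controls. Each was smaller than its SE, so a difference was not detected. Without control 4 the first 2 values were 0.28 ± 1.53 and 0.18 ± 1.10, above 0. The subunits of one transporter thus gave different results: Tap1 was above all controls in every WD library and Tap2 in none. The difference between the subunits was not tested.

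Tapbp stood at 168, 241, 92.4 and 43.4 CPM in controls 1 to 4, at 209, 667, 275, 132 and 223 CPM in WD 1 to 5, and at 109, 135, 108, 150.2 and 120.2 CPM in controls 5 to 9. WD 2 was the highest of all 14 libraries and control 4 the lowest, and WD 1, WD 4 and WD 5 lay within the range of the controls, below control 2. The log2 fold change was 1.14 ± 0.54 in batch 1 (edgeR FDR 0.998), 1.20 ± 0.35 against all controls (edgeR FDR 0.196) and 1.26 ± 0.33 against the batch 2 controls (edgeR FDR 0.0301). The exact permutation p was 0.119, 0.0120 and 0.0238. Without WD 2 the values fell to 0.62 ± 0.47, 0.69 ± 0.32 and 0.74 ± 0.20, each lower by more than 1.5 times, and the last kept an edgeR FDR of 0.0292. The call was ended by 5 of the 10 single libraries when left out: WD 3 and controls 5, 6, 7 and 9, with values of 1.21 to 1.29. Over all 10 the edgeR FDR ran from 0.00828 to 0.0823.

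The immunoproteasome subunits replace the catalytic subunits of the standard proteasome. Psmb8 (Entrez 16913, chr17:34198195-34201454, plus strand), Psmb9 (Entrez 16912, chr17:34182099-34187330, minus strand) and Psmb10 (Entrez 19171, chr8:105935728-105938392, minus strand) take the places of Psmb5, Psmb6 and Psmb7 and shift the cuts towards peptides that fit class I molecules. Psmb8 stood at 22.2, 36.5, 39.8 and 11.3 CPM in controls 1 to 4, at 86.0, 30.3, 87.5, 53.9 and 60.3 CPM in WD 1 to 5, and at 37.7, 64.8, 27.6, 44.9 and 14.1 CPM in controls 5 to 9. In 4 of 5 WD libraries it lay above all batch 1 controls and in 2 of 5 above all controls, and WD 2 was again the lowest of its group. The log2 fold change was 1.21 ± 0.47 in batch 1 (edgeR FDR 0.808, unadjusted p 0.0239) and 0.93 ± 0.37 against all controls (edgeR FDR 0.485, unadjusted p 0.0234). It was 0.74 ± 0.37 against the batch 2 controls (edgeR FDR 0.317), and the exact permutation p was 0.0317, 0.0315 and 0.119 in the same order.

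Psmb9 had 0 to 251 counts. It stood at 0, 0.334, 8.25 and 5.73 CPM in controls 1 to 4, at 17.1, 2.25, 18.6, 1.03 and 11.999 CPM in WD 1 to 5, and at 4.94, 8.29, 13.3, 8.71 and 2.10 CPM in controls 5 to 9. WD 1 and WD 3 lay above all controls, while WD 4 lay below 7 of them. Fold changes were 1.503 ± 1.52 on the log2 scale in batch 1, 0.81 ± 0.98 against all controls and 0.43 ± 0.74 against the batch 2 controls, with edgeR FDRs of 1.00, 1.00 and 0.873. Tap1, which shares its promoter region, separated WD from control libraries where Psmb9 did not, and that difference between the genes was not tested.

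Psmb10 stood at 16.5, 28.2, 21.3 and 0.0726 CPM in controls 1 to 4, at 52.2, 99.8, 37.4, 54.6 and 49.7 CPM in WD 1 to 5, and at 50.6, 66.4, 42.5, 57.2 and 40.9 CPM in controls 5 to 9. The lowest value, in control 4, was 1 count. All WD libraries lay above all batch 1 controls, and all batch 2 controls did so too, so that the WD libraries and the batch 2 controls overlapped. In batch 1 the log2 fold change was 1.82 ± 0.90 (edgeR FDR 1.00, exact permutation p 0.00794) and 0.17 ± 0.27 against the batch 2 controls (edgeR FDR 0.849, exact permutation p 0.698). Against all controls it was 0.69 ± 0.64 (edgeR FDR 0.995, exact permutation p 0.192). Between the control batches it was 1.63 ± 0.89 (edgeR FDR 0.776, exact permutation p 0.00794), and 4.13% of 12106 genes showed the same separation there. Without control 4 the difference between diets in batch 1 was 1.40 ± 0.42, with an edgeR FDR of 0.203.

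Nlrc5 (Entrez 434341, chr8:94472763-94527272, plus strand) encodes the coactivator of class I gene transcription and had 0 to 170 counts. It stood at 15.9, 6.17, 4.17 and 0 CPM in controls 1 to 4, at 8.68, 18.2, 11.5, 4.67 and 10.7 CPM in WD 1 to 5, and at 4.87, 7.53, 3.37, 1.60 and 7.39 CPM in controls 5 to 9. WD 2 was the highest and control 1 the next, and the groups overlapped in each comparison. Fold changes were 0.71 ± 1.28 on the log2 scale in batch 1, 0.92 ± 0.86 against all controls and 1.10 ± 0.61 against the batch 2 controls, with edgeR FDRs of 1.00, 0.999 and 0.392. The exact permutation p was 0.206, 0.0839 and 0.0556. In batch 1 the fold change was 1.64 ± 1.47 without control 1 and 0.27 ± 0.80 without control 4.

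The control batches were compared on their own, since the same diet was fed in both. No member passed the FDR (0% of all genes did) and 0 of 10 had an unadjusted edgeR p under 0.05, against 7.39% of all genes and 3.85% with a higher level in batch 2. In all, 6 of 10 members were above 0, against 49.9% of all genes, and the median over the members was 0.086 on the log2 scale. Psmb10 and Tap1 had an exact permutation p under 0.05 there, 0.00794 and 0.0397, against 13.8% of all genes. Batch was also added as a term to the fit over all 14 libraries. Batch 2 held controls only, so the diet difference there came from batch 1, and batch 2 added to the estimated spread. H2-K1 was 0.93 ± 0.31 in it, against 0.95 ± 0.37 in batch 1 alone. It left 0 members with an FDR under 0.05 (0.0079% of all genes passed, 1 gene higher in WD). An unadjusted edgeR p under 0.05 was found for 5 members, namely H2-K1, Psmb8, Psmb10, Tapbp and Tap1, against 8.81% of all genes and 5.33% with a higher level in WD. For 9 of 10 members the coefficient of variation was lower over the 5 batch 2 controls than over the 4 batch 1 controls, at 14.8% against 69.1% for B2m, 13.6% against 40.5% for H2-K1 and 14.6% against 63.6% for Tapbp. For Psmb8 it was 50.3% against 48.0%.

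Controls 1 and 4 of batch 1 were also left out together, a choice made after their values were seen. In batch 1 no member passed the FDR without them, and 5 had an unadjusted edgeR p under 0.05: Tap1, H2-K1, Psmb10, B2m and H2-D1. In that fit 0.796% of 13576 genes passed the FDR and 0.567% did so with a higher level in WD, and 9.42% had an unadjusted p under 0.05, with 6.01% higher in WD. Against the remaining 7 controls H2-K1 (1.15 ± 0.20, edgeR FDR 0.00123), Tap1 (1.15 ± 0.30, edgeR FDR 0.0262) and Tapbp (1.12 ± 0.32, edgeR FDR 0.0492) were higher in WD, 3 of 10 members against 4.98% of 12428 genes called and 3.1% called higher. These are the same 3 members that passed against the batch 2 controls, which make up 5 of the 7.

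The ratio of each immunoproteasome subunit to its constitutive partner was taken within each library as the log2 ratio of CPM + 1, so that the scaling of a library cancels except for the added 1, which weighs most on low genes such as Psmb9. Psmb8 to Psmb5 averaged -0.73 ± 0.95 (SD, n = 5) in WD, -1.84 ± 0.89 (SD, n = 4) in the batch 1 controls and -1.54 ± 0.95 (SD, n = 5) in the batch 2 controls. The difference was 1.11 in batch 1, 0.94 against all controls and 0.81 against the batch 2 controls, with exact permutation p of 0.119, 0.0854 and 0.238. Only WD 3 held more Psmb8 than Psmb5, at a ratio of 1.36. Psmb9 to Psmb6 averaged -4.14 ± 1.65 in WD, -5.01 ± 1.87 in the batch 1 controls and -4.15 ± 1.01 in the batch 2 controls, and the exact permutation p was 0.460, 0.641 and 1.00 for the 3 comparisons.

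Psmb10 to Psmb7 stood at -2.58, -2.62, -2.57 and -7.43 in controls 1 to 4, at -1.56, 1.24, -2.13, -0.74 and -1.86 in WD 1 to 5, and at -1.63, -1.49, -1.76, -1.43 and -1.77 in controls 5 to 9. The 5 WD libraries lay above the 4 batch 1 controls without overlap, by 2.79 on the log2 scale (exact permutation p = 0.00794). The 5 batch 2 controls lay above them as well, by 2.18 (exact permutation p = 0.00794), and spanned a narrow range inside that of the WD libraries. Against the batch 2 controls the diets differed by 0.61 (exact permutation p = 0.437), and against all controls by 1.58 (exact permutation p = 0.111). Without control 4 the difference in batch 1 was 1.58 (exact permutation p = 0.0714), and WD 2, with 389 counts of Psmb7, had the highest ratio. All ratio p-values are unadjusted. Psmb5, Psmb6 and Psmb7 themselves had log2 fold changes of 0.14 ± 0.32, 0.55 ± 0.33 and -0.23 ± 0.40 in batch 1, with unadjusted edgeR p of 0.665, 0.120 and 0.577. Without control 1 Psmb5 and Psmb7 were 0.23 ± 0.32 and -0.36 ± 0.41, and without control 4 they were 0.081 ± 0.34 and -0.13 ± 0.43.

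**Figure D3:**
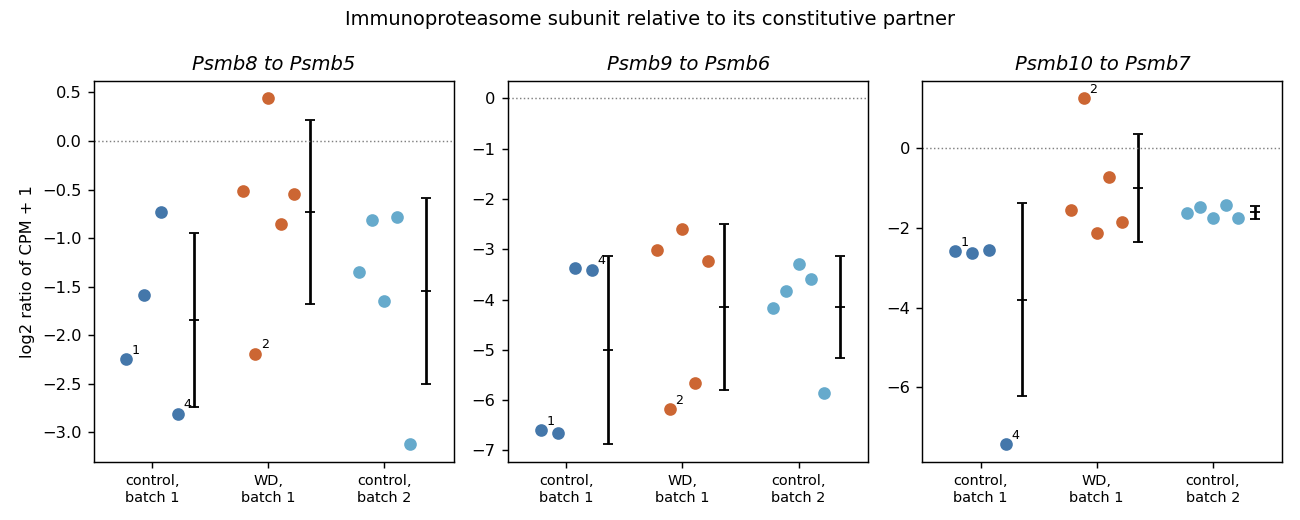
Log2 ratio of CPM + 1 of each immunoproteasome subunit to its constitutive partner in each library, by diet and batch. Points are libraries, bars the mean with the SD, and the dotted line marks equal levels. For Psmb10 to Psmb7 the WD and batch 2 control libraries lie at or above -2.13 and the batch 1 controls at or below -2.57.

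The members did not move as 1 block from library to library. Deviations from the mean of each diet and batch were correlated over the 14 libraries, as a description without a test, since the points share their libraries and the outlying libraries weigh heavily. H2-K1, H2-D1 and B2m went together, with a Pearson r of 0.90 for H2-K1 and B2m, 0.88 for H2-D1 and B2m and 0.86 for H2-K1 and H2-D1. Tap1, Psmb10 and Nlrc5 formed another group, with 0.90 for Tap1 and Psmb10 and 0.83 for Tap1 and Nlrc5. Between the groups r was negative, at -0.82 for B2m and Nlrc5 and -0.79 for B2m and Tap1. Tap1 and Psmb9, which share a promoter region, had an r of -0.27.

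The pattern was strongest in control 4 and WD 2, and control 1 showed only a part of it. In control 4, B2m and Tap2 were the highest of all 14 libraries while Tap1, Tapbp, Psmb8, Psmb10 and Nlrc5 were the lowest. In WD 2, Tap1, Tapbp, Psmb10 and Nlrc5 were the highest of all 14 libraries while H2-K1, H2-D1, B2m and Psmb8 were the lowest of the WD group. In control 1, H2-K1, H2-D1, B2m and Psmb9 were the lowest of all 14 libraries and Nlrc5 the second highest. Tap1 and Psmb10 were low there too, at ranks 11 and 13 from the top. Without controls 1 and 4 and WD 2, over 11 libraries, the heavy chains and B2m still went together, with r of 0.60 to 0.71, and B2m and Psmb8 reached 0.87. Tap1 and Psmb10 then had an r of -0.31, B2m and Tap1 one of 0.45 and Psmb10 and Nlrc5 one of -0.16. H2-K1 and Tap1 went from -0.57 to 0.67 and B2m and Psmb10 from -0.79 to 0.37. Tap1 and Nlrc5 stayed at 0.36, and B2m and Nlrc5 stood at 0.049. Of the pairs between the groups, only H2-D1 and Nlrc5 (-0.40) and H2-K1 and Nlrc5 (-0.083) stayed below 0. The second group and its opposition to the first were thus mostly not seen in the other libraries.

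**Figure D4:**
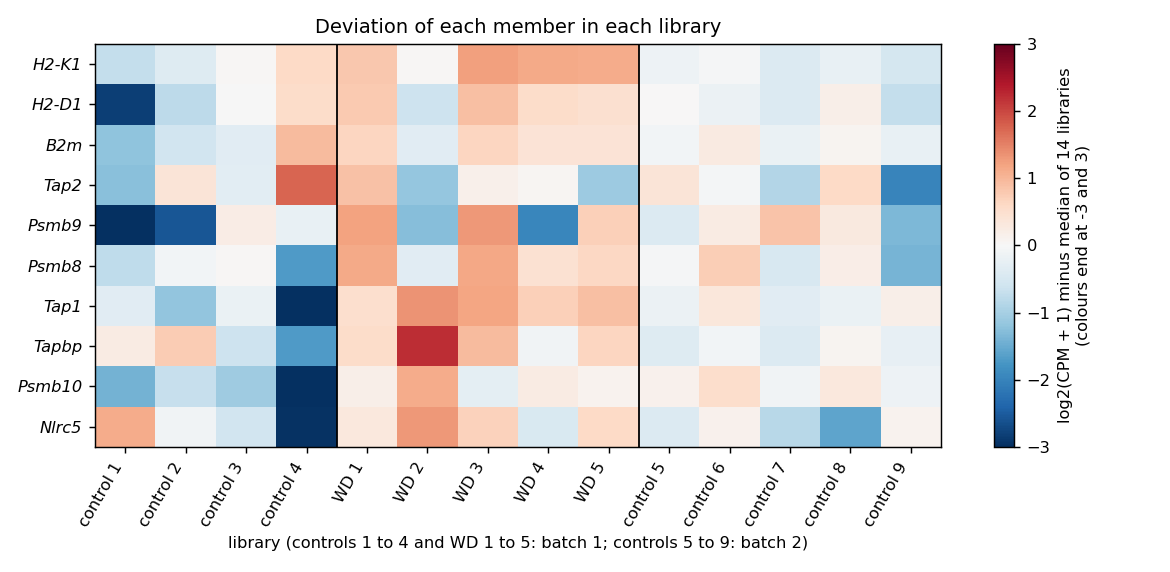
Deviation of each member in each library from its median over 14 libraries, in log2(CPM + 1), red above and blue below, with vertical lines between batch 1 controls, WD and batch 2 controls. In control 4 Psmb8, Tap1, Tapbp, Psmb10 and Nlrc5 are blue and B2m and Tap2 red, in WD 2 Tap1, Tapbp, Psmb10 and Nlrc5 are red, and WD 1 is above the median for 10 of 10 members.

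Other genes of the pathway were followed in 6 lists with 75 genes, of which 3 (H2-Q6, H2-T3 and Ifng, the gene of interferon gamma) had no count in any library and 64 were tested in batch 1. No pathway gene passed the FDR in batch 1, where 2 were higher and 1 lower at an unadjusted edgeR p under 0.05, and the median was 0.13. These 3 of 64 compare with 5.17% of all genes. Against the batch 2 controls 2 were higher and 1 lower at an FDR under 0.05, where 6.4% of all genes passed, so that neither share was above the background. Irf8, a transcription factor of macrophages and dendritic cells, stood at 31.7 to 63.2 CPM in WD against 0 to 27.4 CPM over all controls, without overlap. It rose by 2.15 ± 0.35 on the log2 scale against the batch 2 controls (edgeR FDR 0.00118), and differed by 2.38 ± 1.20 in batch 1 (unadjusted edgeR p 0.0701). Without control 1 the batch 1 value was 4.26 ± 1.24 (unadjusted edgeR p 0.00480), and without controls 1 and 4 it was 3.68 ± 0.81 (0.000513). Calr, the chaperone calreticulin, rose by 0.82 ± 0.24 against the batch 2 controls (edgeR FDR 0.0493) and differed by -0.61 ± 0.55 in batch 1, which became 0.31 ± 0.38 without control 1. Without WD 2 Calr was 0.56 ± 0.18 against the batch 2 controls, and 7 of the 10 single libraries ended that call when left out (WD 2, 3 and 5 and controls 5 to 8), with edgeR FDRs of 0.0387 to 0.131 over all 10. Lap3, an aminopeptidase, was lower in WD, at 25.5 to 92.8 CPM against 109 to 136 CPM in the batch 2 controls (-1.17 ± 0.28, edgeR FDR 0.0164). In batch 1 Lap3 differed by -1.89 ± 0.62, with an unadjusted edgeR p of 0.00998, and control 1 held 5329 counts of it against 677 to 1442 in the other controls of that batch. Without control 1 the value was -0.60 ± 0.41 (unadjusted edgeR p 0.171).

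The remaining lists are given by their counts. Of 4 proteasome activator genes 4 had a fold change above 0 in batch 1, against 51.8% of all genes, with a median of 0.44. None of them passed the FDR or an unadjusted edgeR p under 0.05 there. Against the batch 2 controls 1 of 4 was above 0, against 49.8% of all genes, with a median of -0.041. Between the control batches 4 of 4 were above 0, against 49.9% of all genes, with a median of 0.35. Of 12 genes for other core subunits and the assembly factor Pomp, Pomp had an unadjusted edgeR p under 0.05 in batch 1 (0.66 ± 0.29, p 0.0376), at 322 to 577 CPM in WD against 219 to 351 CPM in the batch 1 controls, and the list's median was -0.018. Without control 4 Pomp was 0.60 ± 0.32 (unadjusted edgeR p 0.0896). Among 24 tested regulators of class I transcription the median was -0.020 against all controls, 0.086 against the batch 2 controls and 0.27 in batch 1. None of the 24 had an unadjusted edgeR p under 0.05 in batch 1. Irf1, a transcription factor of interferon signalling, differed by 0.41 ± 0.64 there (unadjusted edgeR p 0.529), and by 0.74 ± 0.69 without control 1 and 0.19 ± 0.60 without control 4. Jak1 and Jak2, kinases of the interferon receptors, differed by 0.33 ± 0.18 and -1.02 ± 0.52 against all controls, the receptor chain Ifnar2 by 0.46 ± 0.24 and the CCAAT-binding Nfya by 1.67 ± 0.89, each with an unadjusted edgeR p above 0.05. Jak2 was -0.60 ± 0.41 without control 4. H2-Q4, a non-classical heavy chain, had 1 to 3 counts in the batch 1 controls, 16 to 76 in WD and 0 to 29 in the batch 2 controls, too few in the controls for a fold change to be given.

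**Figure D5:**
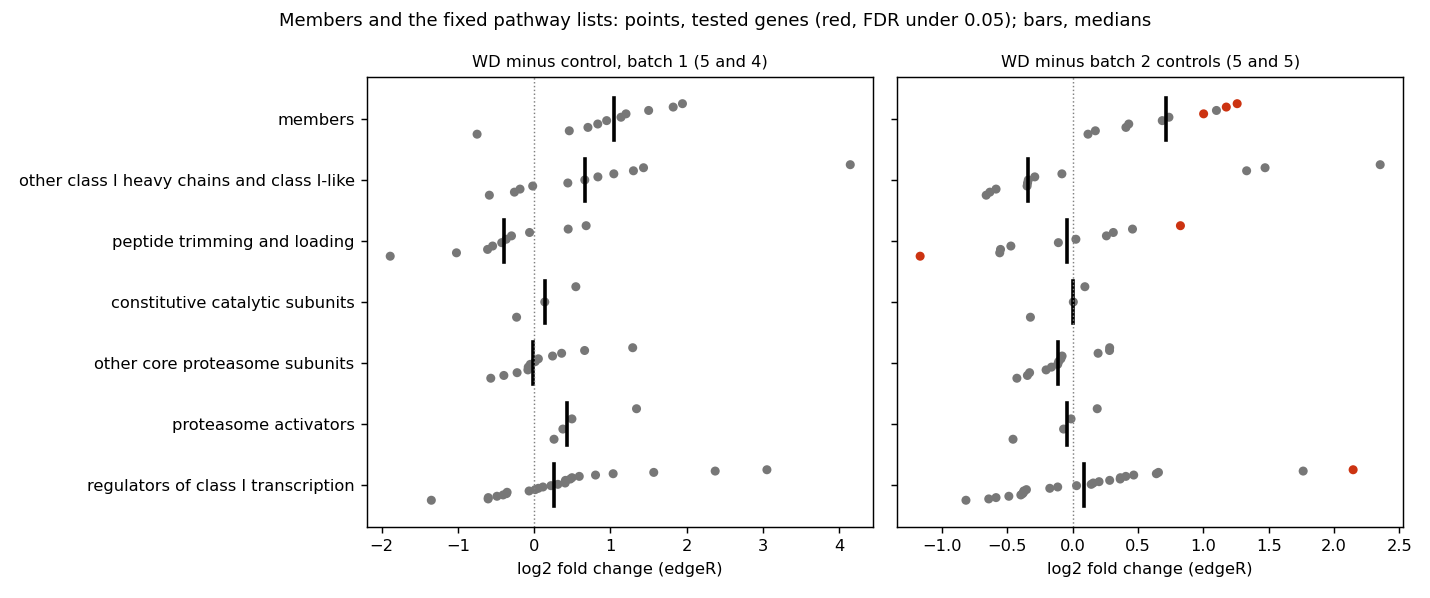
Log2 fold changes of the members and of the genes of 6 pathway lists, in batch 1 on the left and against the batch 2 controls on the right. Points are tested genes, red with an FDR under 0.05, and black bars are medians, which for the members lie at 1.05 and 0.71.

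Summed macrophage and pan-leukocyte markers were higher in each WD library than in any control, though none of these markers passed the FDR in batch 1. No tested T and NK cell, B cell or dendritic cell marker passed it in any comparison of diets. In whole fat more cells of a type and more RNA per cell cannot be told apart. The 10 macrophage markers, none of them without counts, summed to 1898 to 3234 CPM in WD, 398 to 1778 CPM in the batch 1 controls and 404 to 823 CPM in the batch 2 controls. All 10 had a fold change above 0 in batch 1, against all controls and against the batch 2 controls, where 51.8%, 47.1% and 49.8% of all genes did. In the same order 0, 5 and 9 of 10 were higher at an FDR under 0.05, against 0%, 0.435% and 3.93% of all genes. The 4 pan-leukocyte markers summed to 282 to 499 CPM in WD and to at most 237 CPM in any control. T and NK cell markers summed to at most 27.2 CPM in any library and the B cell markers to at most 89.9 CPM, in WD 3. Dendritic cell markers summed to 3.25 to 14.9 CPM in WD and 0 to 10.8 CPM in the controls. WD 2, the lowest WD library for H2-K1, H2-D1 and B2m, had the highest macrophage sum of all. The 9 adipocyte markers summed to 31150 to 44940 CPM in WD and to 60533 to 74257 CPM in the batch 2 controls, with a median log2 fold change of -0.87. At an FDR under 0.05, 5 of 9 were lower and 1 higher there, against 6.4% of all genes called in either direction and 3.93% called higher. In batch 1 they summed to 6676 to 52010 CPM in the controls, with a median of -0.0096 and 0 of 9 past the FDR (0% of all genes). Endothelial markers summed to 66.6 to 175 CPM in WD and 72.4 to 309 CPM in the controls, and stromal progenitor markers to 2754 to 4864 CPM and 1143 to 3646 CPM. Of the 6 stromal progenitor markers 2 were higher at an FDR under 0.05 against the batch 2 controls and 0 in batch 1, against 3.93% and 0% of all genes. Mesothelial markers summed to 16.9 to 123 CPM in WD and to 0.0726 CPM in control 4, against 13.3 to 108 CPM in the other controls. The part of these cell types in the members' levels was not tested.

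The counts included multiple alignments, so a read could be counted at several genes, and paralogs were checked. Of the stretches of 75 bases in the last 500 bases of each member's longest coding transcript, 0 of 426 matched another gene exactly for any of the 10 members. Only exact matches were sought, so reads shared between similar but not identical stretches were not checked. Among the class I-like genes H2-T10 and H2-T22 shared 39.4% and 39.2% of theirs with each other, and H2-T9 and H2-T22 had equal counts in 5 of 14 libraries, so their separate values are uncertain. The annotation places genes on the opposite strand over parts of B2m, Tap1, Tap2, Tapbp, Psmb8, Psmb9, Psmb10 and Nlrc5. GENCODE also places the protein-coding gene Zbtb22 over part of Tapbp, and the microRNA gene Mir7072 over part of Nlrc5, on the same strand, which strand information would not resolve. Whether counting used the strand is not given in the sources used here, so it is not known whether reads from overlapping stretches were told apart.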

How the data were processed

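Libraries of eWAT RNA were made with the QuantSeq 3′ kit and sequenced as single-end reads of 75 bases. Raw counts of 23282 genes were deposited, which the authors had made with Bowtie2 alignments, multiple ones included, and bedtools. Per the labels the build was mm10, and tool versions are not given in the sources used here. The authors also deposited log2 values, computed in edgeR as CPM after TMM scaling, with 1 added before the logarithm. They were not tested here and differed from values recomputed from the counts by at most 0.0507. Of the genes, 5794 had no count and 44 symbols were repeated, members not among them.

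Counts were tested with edgeR 4.0.16 in R 4.3.3 (quasi-likelihood test, TMM, edgeR's filter on low counts, no covariates, Benjamini-Hochberg adjustment over all genes tested). All 10 members passed the filter in each comparison. Single genes and ratios were compared by two-sided exact permutation tests of log2(CPM + 1), run in Python 3.11.15 (scipy 1.17.1, pandas 2.3.3, numpy 2.4.6). Figures were made with matplotlib 3.10.9. No pair of libraries in a group agreed within sampling noise, and each library was 1 replicate. The labels name a separate sample for each library, and p-values measure the spread between these samples. Molecular identifiers are not mentioned, so depth limits cover counting error only. Promoters came from RefSeq (GRCm38.p6), and overlaps and shared stretches from GENCODE vM21. No window was given for Tap2 and Nlrc5.

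The members, the pathway lists and the marker lists were chosen with earlier results of these data known. Named pathway genes were the 8 with the lowest p against all controls and the 3 constitutive subunits. Calr, Irf1 and Ifng were named after their values were seen. Values of 2 other genes are not reported here. Alternatives were upper-quartile factors, library totals, other filters, DESeq2 1.42.0, limma-voom (limma 3.58.1), thinned counts, a batch term, a replicate block, a pseudocount of 0.1, another partner for the ratios, each library left out, and controls 1 and 4 left out together. The script was tested on simulated data.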

Additional observations from a re-analysis of the deposited data

Results flagged for a closer look

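Libraries far from the rest of their group were sought by the gap to the nearest library over the group's range. Among 39 groups (10 members and 3 ratios in 3 groups of libraries) 4 gaps were past Dixon's 95% value, and chance gives about 1 in 20, or 1.95 of 39. H2-D1 was lowest in WD 2, at 9.30 in log2(CPM + 1) against 10.42 to 10.84 in the other WD libraries. B2m was lowest in the same library, at 12.18 against 12.95 to 13.17. Psmb10 was lowest in control 4, at 0.10 against 4.13 to 4.87 in the other batch 1 controls, from 1 count. The log2 ratio of Psmb10 to Psmb7 was lowest in control 4 as well, at -7.43 against -2.62 to -2.57. WD 2 and control 4 thus accounted for all 4.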

How the results depend on the processing

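In batch 1 no member passed the FDR under any of the alternatives run, the replicate block included, and 0 to 5 had an unadjusted edgeR p under 0.05 as single libraries were left out. DESeq2 called 114 genes of all genes there against 0 by edgeR, no member among them, and edgeR called 48 without control 4 and 108 without controls 1 and 4. Against all controls, 1 member (H2-K1) passed with a stricter filter (1 CPM or more in each library), with DESeq2 and with limma-voom, 3 passed without controls 1 and 4 and 0 to 2 with single libraries left out (1 without control 1, 2 without control 4, 1 without WD 2). Against the batch 2 controls 1 to 4 passed with single libraries left out, with 1 without WD 3, control 5, control 7 or control 9 and 4 without WD 2. DESeq2 called 4 there, H2-D1 among them, and limma-voom 2. Same-numbered libraries of batch 1 did not deviate together (r of -0.02 to 0.08, 2 of 4 closest to their own number). The replicate block over 8 libraries gave 1 member with an unadjusted edgeR p under 0.05, and Psmb10 to Psmb7 then differed by 3.00 (exact p 0.125, the smallest 4 pairs allow).

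Psmb10 to Psmb7 in batch 1 ran from 1.58 to 3.20 with single libraries left out and was 1.58 (exact permutation p 0.190) without controls 1 and 4. Psmb8 to the mean of the 3 constitutive partners differed by 1.14 in batch 1 (exact permutation p 0.0397) and by 1.03 against all controls (0.0265). With single libraries left out Psmb8 to Psmb5 ran from 0.79 to 1.48, 0.65 to 1.31 and 0.42 to 1.18 over the 3 comparisons, with an exact permutation p of 0.0196 and 0.0476 in the last 2 without WD 2. Psmb9 to Psmb6 against the batch 2 controls changed sign, from -0.43 to 0.51 with single libraries left out and -0.086 with a pseudocount of 0.1.

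Other changes of sign were in members far from the threshold. With single libraries left out, Tap2 ran from -1.29 to 0.28 in batch 1, -0.86 to 0.18 against all controls and -0.39 to 0.48 against the batch 2 controls, and Psmb10 from -0.10 to 0.30 in the last. Against all controls Tap2 was 0.19 by limma-voom, 0.036 without controls 1 and 4 and 0.11 in the permutation test with a pseudocount of 0.1, and Psmb9 was -0.018 against the batch 2 controls with that pseudocount. Between the control batches B2m was -0.010 with upper-quartile factors, -0.028 with library totals, -0.037 with the stricter filter and -0.060 by DESeq2, Psmb8 was -0.0077 without controls 1 and 4, and Tapbp and Nlrc5 were 0.14 and 1.17 by limma-voom. With single libraries left out there, B2m ran from -0.21 to 0.65, H2-D1 from -0.22 to 0.63, H2-K1 from -0.41 to 0.074, Tapbp from -0.41 to 0.32, Nlrc5 from -0.79 to 0.52 and Tap2 from -1.25 to 0.18. limma-voom moved the median of all genes to 0.42 in batch 1 and 0.15 against all controls. The cause of these changes was not tested. Tap2, Psmb9 and Nlrc5 had at most 168, 251 and 170 counts and 0 counts in at least 1 library each. Tap1 had 0 counts in control 4. The part of depth in their spread was not tested.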

Other observations

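The balance of the heavy chains was followed as the ratio of H2-K1 to H2-D1 counts within a library, a measure chosen after the values were seen. It was 2.47, 0.762, 0.594 and 0.589 in controls 1 to 4, 0.589, 0.918, 0.716, 0.863 and 0.878 in WD 1 to 5, and 0.508, 0.634, 0.572, 0.435 and 0.650 in controls 5 to 9. Control 1 was the only library with more H2-K1 than H2-D1. The WD libraries were higher than the batch 2 controls by 0.50 on the log2 scale (exact permutation p = 0.0238, unadjusted, WD 1 lying among the controls), where diet and batch cannot be told apart. In batch 1 the difference was -0.20 (exact permutation p = 0.841), and against all controls it was 0.19 (exact permutation p = 0.676).

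Over the 14 libraries, genes outside the set whose deviations from the mean of each diet and batch were among the most like the mean standardized profile of the members were Sh2d4a, Plcd1, Cma1 and Birc3, with a Pearson r of 0.94, 0.91, 0.91 and 0.89. Each of them had 0 counts in at least 1 library and at most 363 in any. Among the members themselves r with that profile ran from -0.0037 for Nlrc5 to 0.91 for Psmb8.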
